A study of Mus musculus with 13 samples.

Results

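mmu-miR-378a-3p, mmu-miR-103-3p and mmu-miR-107-3p are 3 mature mouse microRNAs (miRNAs), written without the mmu prefix from here on, whose precursors lie in introns of genes of energy metabolism. They were followed by name through both count tables of the series, in which all 3 have a row, among 1452 miRNAs listed in at least 1 table and 1066 listed in both. The series measured small RNA in extracellular vesicles of mice with a tumour that brings on cachexia, a loss of muscle and fat. All material is from the Balb/C strain. C26 cells, a colon adenocarcinoma line, were kept in serum-free medium for 48 h, and the vesicles they released, called TMVs here, gave 3 libraries. Plasma vesicles gave 6 libraries from mice labelled cachectic, killed 14 days after 500000 C26 cells were injected under the skin of the back, and 4 libraries from tumour-free mice labelled healthy. The TMVs are from 1 cell line in culture, and plasma vesicles can come from any tissue. Control replicates 2 and 3 each bear 2 numbers in their descriptions, with no word on whether plasma was pooled, and the labels read here state no age or sex.

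A miRNA pairs with messenger RNAs through its seed, bases 2 to 8 from its 5′ end, and lowers their output. An intronic miRNA can be cut from the primary transcript of its host gene. The host of miR-378a is Ppargc1b, the coactivator PGC-1β that drives genes of mitochondria and fatty acid oxidation, and miR-378a is known for roles in oxidative metabolism and in muscle. The hosts of miR-103 and miR-107 are the pantothenate kinase genes, whose enzymes catalyse the first step of coenzyme A synthesis, and miR-103 and miR-107 are known as regulators of insulin sensitivity in liver and fat.

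In the GENCODE M21 annotation of GRCm38, each of the 4 precursors lies in an intron of its host, on the host's strand. Mir103-1 lies in Pank3 (chr11:35782396-35782481, plus strand). Mir103-2 lies in Pank2 (chr2:131288052-131288137, plus strand), and Mir107 lies in Pank1 (chr19:34820687-34820773, minus strand). The hairpins of the Pank genes are shown because they bear on what a count of miR-103-3p can mean. They are RefSeq sequences on GRCm38.p6, with the 3p miRNA in capitals.
Mir103-1: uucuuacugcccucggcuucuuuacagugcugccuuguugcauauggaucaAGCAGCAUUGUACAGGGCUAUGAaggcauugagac
Mir103-2: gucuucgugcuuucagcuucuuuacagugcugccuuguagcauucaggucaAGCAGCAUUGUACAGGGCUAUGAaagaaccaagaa
Mir107: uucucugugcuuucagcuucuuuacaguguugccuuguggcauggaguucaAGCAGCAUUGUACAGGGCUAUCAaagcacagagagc

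Both Mir103 hairpins give the same mature miR-103-3p, so its counts do not separate Pank3 from Pank2. The 5p arms of the Pank hairpins, sought as miR-103-1-5p, miR-103-2-5p and miR-107-5p, had no row under these names in either count table. The mature sequences follow, from the same RefSeq table, which holds 2 of the 3 miRNAs, with the seed in capitals. miR-16-5p and miR-15b-5p, which belong to a group with a related 5′ end, are set beside them.
miR-103-3p: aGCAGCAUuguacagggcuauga
miR-107-3p: aGCAGCAUuguacagggcuauca
miR-16-5p: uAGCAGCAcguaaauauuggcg
miR-15b-5p: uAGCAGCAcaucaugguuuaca

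miR-103-3p and miR-107-3p have the same seed, which no other of the 1679 mature miRNAs in that table has. They are 23 bases long and differ by 1 substitution, G22C, counted from the 5′ end of miR-103-3p with the miR-107-3p base last. The first 21 bases are the same, so a read that ends before base 22 fits both, and the sources used here do not say how the authors counted such reads. The seed of miR-16-5p and miR-15b-5p equals bases 1 to 7 of miR-103-3p, a shift of 1 base, so the groups do not share a seed.

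The values are raw counts per mature miRNA. The TMV libraries held 112357 to 170571 counts and the plasma libraries 7962 to 131385, so a rare miRNA is measured far less well in plasma. Red cell markers (4 miRNAs) held 5.98% to 31.3% of control plasma counts and 3.50% to 52.7% in C26-bearing plasma, liver markers (3 miRNAs) 6.71% to 28.3% and 0.830% to 10.3%. In TMVs red cell markers held 0.489% to 1.54% and liver markers 0.0635% to 0.110%. miR-5119 took 26.6% to 58.7% of the counts in 5 plasma libraries, C26-bearing replicates 1 to 4 and control replicate 4, and at most 2.55% in the other 5. This lowers the share of any other miRNA there, so comparisons within plasma are also given within these parts. In such bulk samples, fewer vesicles of a kind and less of a miRNA in each cannot be told apart.

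In TMVs the 3 miRNAs were of very unequal abundance. miR-378a-3p held 3.13%, 3.88% and 3.03% of the counts in TMV replicates 1 to 3, where it ranked 12th, 7th and 9th. The mean was 3.34% ± 0.464 (SD, n = 3). miR-103-3p held 0.643%, 0.542% and 0.673%, a mean of 0.619% ± 0.0686 (SD, n = 3), with ranks 38, 38 and 33. For miR-378a-3p and miR-103-3p the spread between the libraries was small beside the gap between the miRNAs, and the replicate with most miR-378a-3p had least miR-103-3p. miR-107-3p had 2, 2 and 5 counts, a mean of 0.00203% ± 0.000812 (SD, n = 3). The miR-107-3p row was therefore close to the limit of detection in TMVs, while the miR-103-3p row was well measured. As reads that end before base 22 fit both, these rows may not give the balance of the Pank1 miRNA and that of Pank2 and Pank3.

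In plasma the order was the same and the mean shares of all 3 were lower, that of miR-107-3p resting on 1 count in all. miR-378a-3p held 0.280% at the lowest, 0.539% at the median and 1.04% at the highest of the 6 C26-bearing libraries, a mean of 0.601% ± 0.319 (SD, n = 6). In the control libraries it held 0.601%, 0.862%, 0.674% and 0.452% in replicates 1 to 4, a mean of 0.647% ± 0.171 (SD, n = 4). Its rank lay between 15 and 36 in the 10 plasma libraries, where 214 to 525 miRNAs were detected per library.

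miR-103-3p was rare in plasma. C26-bearing replicates 1 to 6 gave 8, 44, 37, 1, 14 and 16 counts, and control replicates 1 to 4 gave 30, 5, 62 and 2. These are shares of 0.0102% at the lowest, 0.04996% at the median and 0.0576% at the highest C26-bearing library. The control shares were 0.0238%, 0.00897%, 0.0472% and 0.0251%. C26-bearing replicate 4 and control replicates 2 and 4 were lowest in counts, and 4 of the 10 libraries had fewer than 10 counts, where the exact (Clopper-Pearson) 95% interval is wide. It ran from 0.000258% to 0.0567% for the 1 count of C26-bearing replicate 4 and from 0.00304% to 0.0907% for the 2 counts of control replicate 4.

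miR-107-3p had 1 count in C26-bearing replicate 2 and 0 in the other 9 plasma libraries. The 4 control libraries together held 0 of 321126 counts, which allows a share of up to 0.000934%. This limit lies below the TMV mean of 0.00203%, which rests on 9 counts. The exact intervals from pooled counts, 0.000958% to 0.00398% in TMVs and 0% to 0.00115% in control plasma, overlap. Overlap of intervals is not a test of a difference, and pooled counts leave out the spread between libraries. Whether the share was lower in control plasma was not tested. Within a single control library the limit was between 0.00228% and 0.0377%, above the TMV mean in each, so no single library could show a difference. No fold change between the plasma groups is given for it.

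**Figure D1:**
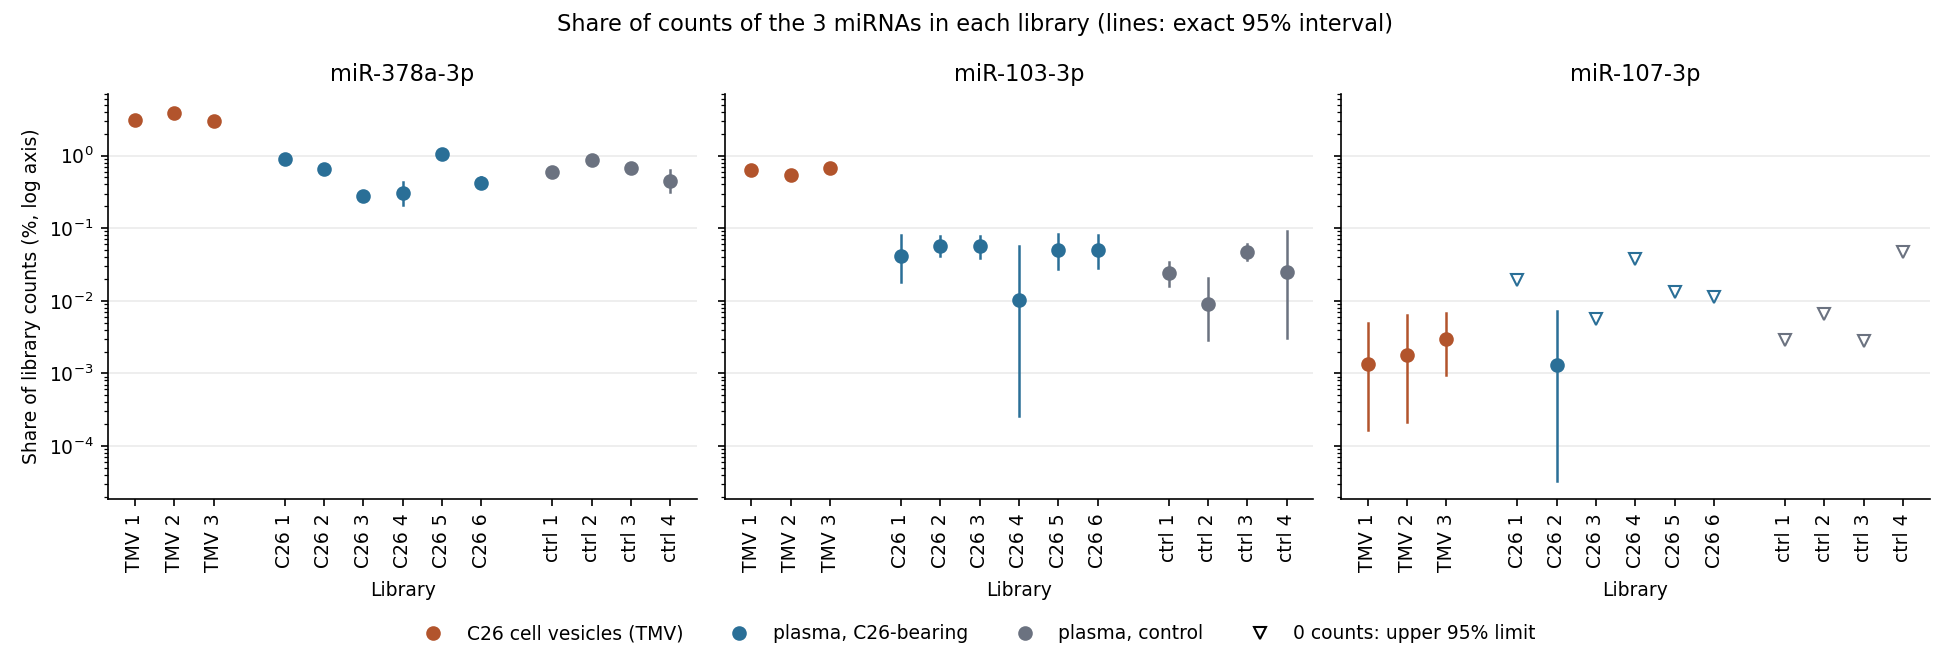
Share of each library's counts (%, log axis) held by miR-378a-3p, miR-103-3p and miR-107-3p in 3 TMV, 6 C26-bearing plasma and 4 control plasma libraries. Points are libraries and lines are exact 95% intervals for counting error. Where the count is 0, open triangles mark the upper end of this interval, which lies above the limit of 3 counts given in the text. The TMV points lie above all plasma points for miR-378a-3p and miR-103-3p, while miR-107-3p is at 0 in 9 of 10 plasma libraries.

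The TMV libraries and the plasma libraries were prepared from different materials and counted in separate tables, so a difference between them cannot be told apart from a difference between preparations or runs. The lowest TMV share of miR-378a-3p, 3.03%, lay above the highest plasma share, 1.04%, and its TMV mean was 5.17 times the control and 5.56 times the C26-bearing plasma mean. For miR-103-3p the lowest TMV share was 0.542% and the highest plasma share 0.0576%, and the TMV mean was 23.6 times the control and 14.0 times the C26-bearing plasma mean. Tested as a ratio within libraries, the difference between these folds of miR-103-3p and miR-378a-3p did not pass after adjustment. Such a gap is not shown to be particular to miR-378a-3p and miR-103-3p, as its frequency over all miRNAs was not counted. The 15 metabolism-linked miRNAs listed further below together held 8.76% to 10.5% in TMVs, 1.78% to 5.75% in C26-bearing and 1.95% to 4.51% in control plasma. The 20 listed in other host genes held 8.41% to 9.38% in TMVs and 3.03% to 8.64% in C26-bearing plasma, which overlap. All these shares depend on what else fills each library. Red cell, liver and miR-5119 counts fill much of the plasma libraries and little of the TMV libraries. With the 10 miRNAs of highest summed count in each material left out of the totals, the mean share of miR-103-3p was 1.21% in TMVs. It was 0.140% in C26-bearing and 0.0805% in control plasma. The 10 were picked once over all TMV libraries and once over all plasma libraries, and those of the TMVs include miR-378a-3p.

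The ratio of miR-378a-3p to miR-103-3p within a library does not depend on the other miRNAs. It was 4.86, 7.15 and 4.50 in TMV replicates 1 to 3. In C26-bearing plasma it was 5.00 at the lowest, 15.99 at the median and 30 at the highest. In control replicates 1 to 4 it was 25.2, 96.2, 14.3 and 18. Each control lay above each TMV library, and C26-bearing replicate 3, the library with most miR-5119 at 58.7%, lay within the TMV range. The mean log2 ratio, with 0.5 added to each count, was 2.43 ± 0.358 (SD, n = 3) in TMVs and 4.07 ± 1.09 (SD, n = 10) in plasma, a difference of -1.64. The two-sided exact permutation test gave p = 0.0350, and p = 0.0932 after adjustment over the 8 ratio comparisons made, so it did not pass. Leaving out any 1 TMV library raised the exact permutation p to between 0.0758 and 0.121. The difference was -2.27 against control plasma alone (exact permutation p = 0.0286, the smallest possible there) and -1.22 against C26-bearing plasma alone (exact permutation p = 0.0595).

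Between the plasma groups the same log2 ratio averaged 3.65 ± 0.852 (SD, n = 6) with tumour and 4.69 ± 1.23 (SD, n = 4) without. The difference of -1.05 did not pass the exact permutation test (two-sided p = 0.162, adjusted 0.259). The highest ratio, 96.2 in control replicate 2, rests on 5 counts of miR-103-3p. Without that library the difference was -0.46 (exact permutation p = 0.452). Among the 5 libraries poor in miR-5119 it came to -1.28 (exact permutation p = 0.4, where 0.1 is the smallest possible). Among the 5 rich in it, of which 1 is a control, it came to -0.24 (exact permutation p = 0.8, where 0.2 is the smallest possible).

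**Figure D2:**
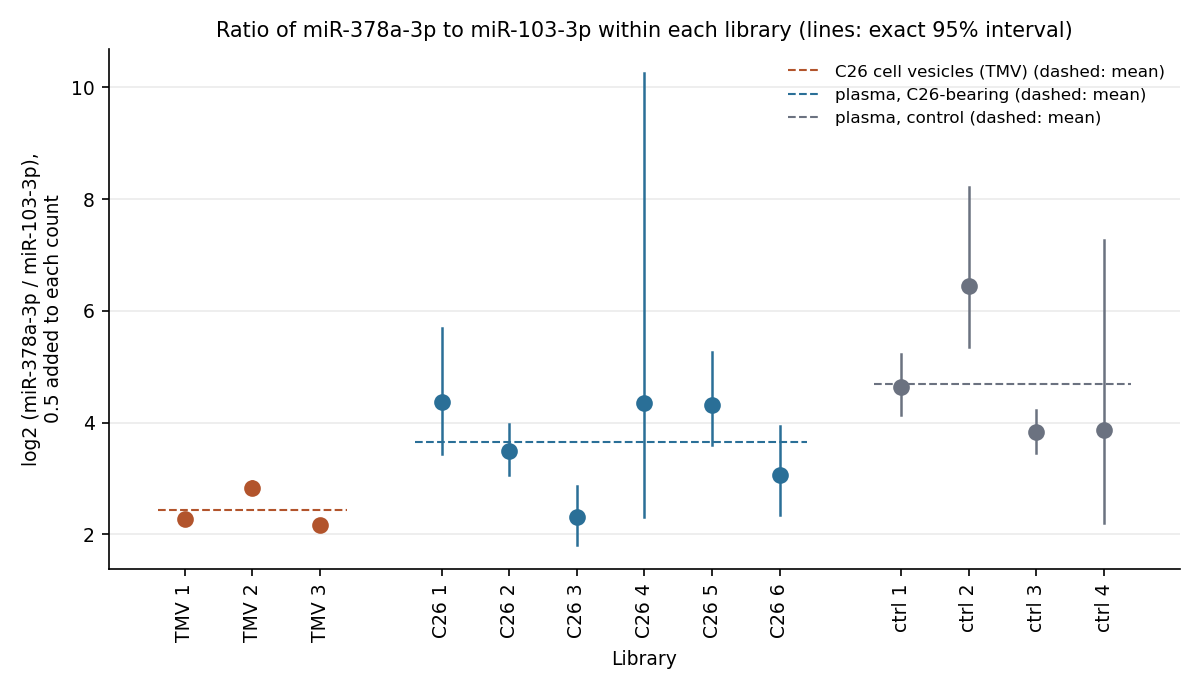
log2 ratio of miR-378a-3p to miR-103-3p in each library, with 0.5 added to each count. Points are libraries, lines are exact 95% intervals computed from the counts, and dashed lines are group means (2.43 in TMVs, 3.65 in C26-bearing and 4.69 in control plasma). C26-bearing replicate 4 and control replicate 4 have long lines because they hold 1 and 2 counts of miR-103-3p.

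Among the counts of miR-103-3p and miR-107-3p together, miR-107-3p made up 9 of 2708 in TMVs, or 0.332% (exact 95% interval 0.152% to 0.630%). In plasma it made up 1 of 220, or 0.455% (0.0115% to 2.51%). These intervals from pooled counts overlap. Taken per library with 0.5 added to each count, the mean log2 ratio of miR-103-3p to miR-107-3p was 8.06 ± 0.442 (SD, n = 3) in TMVs and 4.54 ± 1.71 (SD, n = 10) in plasma, a difference of 3.53 (exact permutation p = 0.00699, adjusted 0.0420). That value is set by the 0.5 wherever miR-107-3p is at 0, as it is in 9 of the 10 plasma libraries, and with 0.1 in its place the difference was 1.70 (exact permutation p = 0.164). Against control plasma alone it was 3.40 (exact permutation p = 0.0571). In both materials the miR-103-3p row held nearly all counts of the pair.

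The arms of miR-378a, from the precursor Mir378a in Ppargc1b (chr18:61397835-61397900, minus strand), were also unequal. miR-378a-5p, the opposite arm of the hairpin, had 7, 1 and 7 counts in TMVs, 0.106% of the counts of both arms (15 of 14116, exact 95% interval 0.0595% to 0.175%). In plasma it had 33 of 3507, or 0.941% (0.649% to 1.32%). It was found in 6 of 10 plasma libraries, 4 C26-bearing and 2 control, and was 0 of 481 in control replicate 2, so plasma libraries differed among themselves. The mean log2 ratio of the 3p to the 5p arm was 10.1 ± 1.25 (SD, n = 3) in TMVs and 6.74 ± 1.36 (SD, n = 10) in plasma, a difference of 3.32 (exact permutation p = 0.0105, adjusted 0.0420). As no library had more than 10 counts of the 5p arm, this value leans on the 0.5 added to each count, and with 0.1 in its place the difference was 2.51 (exact permutation p = 0.0944). Against control plasma alone it was 2.77 (exact permutation p = 0.114). Other members of the miR-378 family, miR-378b, miR-378c and miR-378d, had 18, 14 and 8 counts in all TMV libraries and 5, 5 and 2 in all plasma libraries. Their sum was 0.284% of the miR-378a-3p counts in TMVs and 0.345% in plasma.

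The plasma libraries set C26-bearing mice against tumour-free mice. miR-378a-3p did not differ beyond the spread between libraries. Levels are given as CPM, counts relative to the library total, scaled with TMM factors, which allow for differences in composition between libraries. In control replicates 1 to 4 miR-378a-3p stood at 6652, 7413, 4994 and 6220 TMM-scaled CPM. In C26-bearing mice it stood at 3052 at the lowest, 5523 at the median and 9381 at the highest. C26-bearing replicates 1 and 5 lay above all controls and replicates 3, 4 and 6 below them, so the C26-bearing libraries spread to both sides of the control range. The means were 6166 ± 2599 (SD, n = 6) and 6320 ± 1012 (SD, n = 4). The log2 fold change, C26-bearing minus control, was -0.03 (SE 0.388), with a 95% interval of -0.88 to 0.82 (edgeR quasi-likelihood, adjusted p = 0.976). The groups overlapped for miR-378a-3p, as for all but 1.54% of the miRNAs tested.

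miR-103-3p had higher values in most C26-bearing libraries, with no call. In control replicates 1 to 4 it stood at 264, 77.1, 350 and 346 TMM-scaled CPM. In C26-bearing mice it stood at 102 at the lowest, 497 at the median and 879 at the highest. C26-bearing replicate 4, with its 1 count, lay between the controls, and the other 5 C26-bearing libraries lay above all 4 controls. Of the 130 miRNAs tested, 5.38% had at least 5 of 6 C26-bearing libraries above all controls. The means were 494 ± 252 (SD, n = 6) and 259 ± 128 (SD, n = 4). The log2 fold change was 1.00 (SE 0.646), with a 95% interval of -0.42 to 2.42 (edgeR quasi-likelihood, adjusted p = 0.651). A log2 fold change at least this high was seen in 22.3% of the miRNAs tested. The 3 muscle markers also held more of the counts in some C26-bearing libraries (1.76% to 14.9% against 0.725% to 4.01%), and the 3 liver markers less (0.830% to 10.3% against 6.71% to 28.3%), and their part in the values of miR-103-3p and miR-378a-3p was not tested.

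By share of all counts, with no TMM scaling, 4 of the 6 C26-bearing libraries lay above all controls for miR-103-3p, and 5 of 6 once miR-5119 was left out of the totals. Without control replicate 2 the log2 fold change of miR-103-3p was 0.49 (edgeR adjusted p = 0.880). Among the libraries poor in miR-5119 it was 1.09 (SE 0.816). Among those rich in it the estimate was 0.48 (SE 1.32), where the lone control was taken to vary as the other libraries do. DESeq2 gave 1.27 (SE 0.627) with an adjusted p of 0.219. With limma voom and quality weights it was 0.99 (SE 0.566), at an adjusted p of 0.218.

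**Figure D3:**
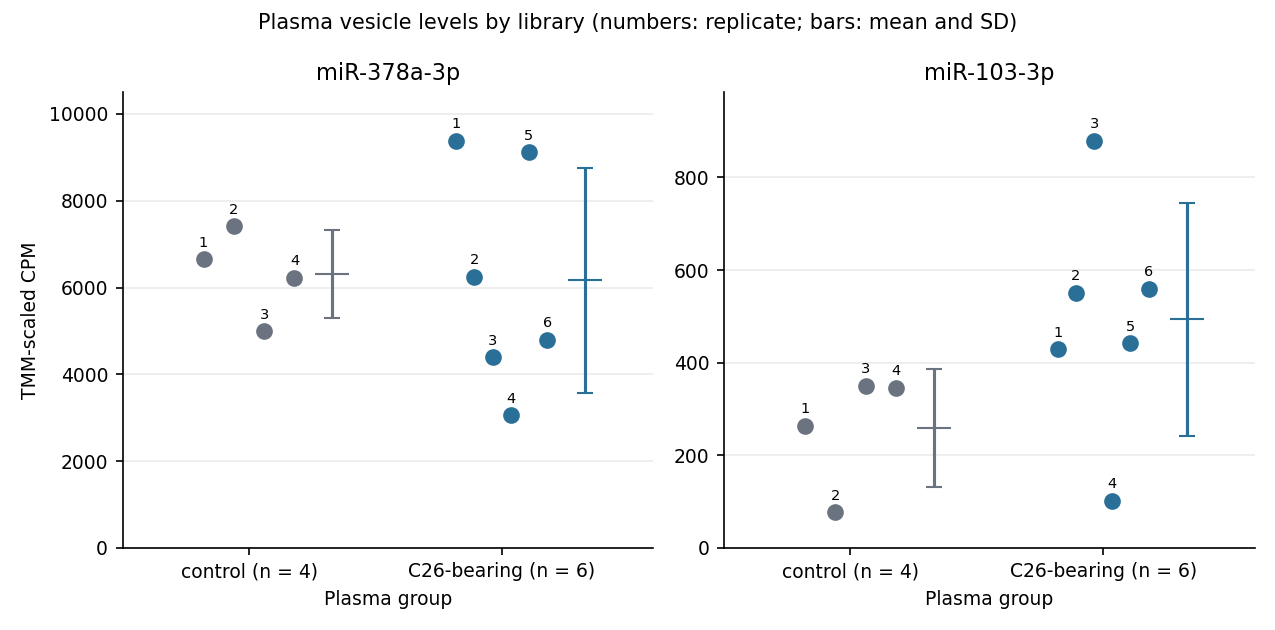
TMM-scaled CPM of miR-378a-3p and miR-103-3p in the 4 control and 6 C26-bearing plasma libraries, numbered by replicate, with the mean and SD of each group beside the points. For miR-378a-3p the C26-bearing points reach above and below the controls. For miR-103-3p all C26-bearing points but replicate 4 lie above the controls.

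Over all 130 miRNAs that passed the filter on low counts, 0% passed an adjusted p of 0.05 with edgeR and 11.5% had an unadjusted p under 0.05. DESeq2 called 4 and limma voom with quality weights called 17, and neither miR-378a-3p nor miR-103-3p was among these. miR-107-3p did not pass the filter. The median log2 fold change of all tested was 0.01, with 66 above 0 and 64 below.

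The related miRNAs were read from the same fit. Of the 6 listed miRNAs of the miR-15/16 group, known as repressors of the cell cycle, 2 were tested and 0 passed. Their log2 fold changes were 1.302 (SE 0.901) for miR-16-5p and 1.38 (SE 1.26) for miR-15b-5p. The counts of miR-16-5p ran from 12 to 257 in C26-bearing libraries, with 176 in replicate 2 and 257 in replicate 3, and from 11 to 88 in controls. With the miR-5119 part as a model term the median of the pair turned from 1.34 to -0.13, and among the libraries poor in miR-5119 it was -0.27, from 1 tested miRNA. In TMVs the group of 6 held 0.134% ± 0.0315 (SD, n = 3) of the counts, less than miR-103-3p alone in each TMV library. In plasma it held 0.226% ± 0.199 (SD, n = 6) and 0.111% ± 0.0744 (SD, n = 4), more than miR-103-3p in 9 of 10 libraries. The exception was C26-bearing replicate 6, with 0.0403% for the group and 0.0496% for miR-103-3p. miR-16-5p is also carried by red cells and is 1 of the 4 red cell markers. The other 3 markers held 0.408% to 1.42% of TMV counts and 3.37% to 52.6% of plasma counts, and their part in this balance was not tested.

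A second list held 15 miRNAs known for links to lipid, glucose or energy metabolism, such as miR-33-5p, which lies in the sterol regulator gene Srebf2. Of these, 5 were tested and 0 passed, with 3 log2 fold changes above 0, 2 below and a median of 0.00. They were 0.00 (SE 0.552) for miR-143-3p, 0.34 (SE 0.416) for miR-26a-5p, -0.05 (SE 0.434) for miR-27a-3p and -0.02 (SE 0.381) for miR-27b-3p. miR-33-5p was listed with 0 counts in all 13 libraries. The last list held 20 miRNAs chosen as intronic in other protein-coding host genes. Whether they are cut from the transcripts of these hosts was not tested. For 19 of these 20 a precursor was matched, and in each case it lay inside a protein-coding gene on the same strand. Of the 20, 13 were tested and 0 passed, with 8 above 0, 5 below and a median of 0.13. The most abundant were miR-25-3p at -0.37 (SE 0.537), miR-126a-3p at 0.37 (SE 0.374), miR-128-3p at -0.69 (SE 0.795) and miR-151-3p at -0.26 (SE 0.746). The value of miR-378a-3p lay near the medians of the last 2 lists and that of all miRNAs, and the value of miR-103-3p lay above them.

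**Figure D4:**
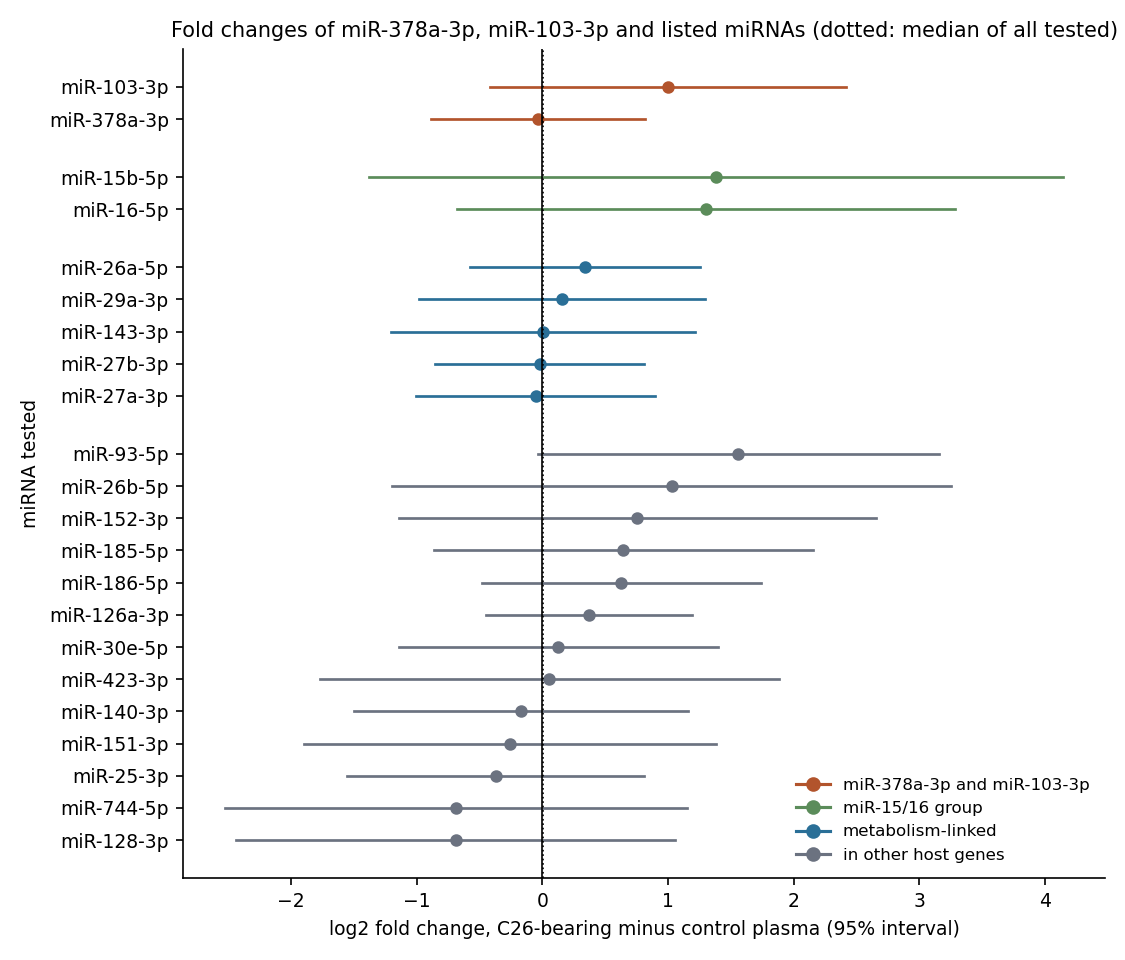
log2 fold change of C26-bearing against control plasma (edgeR) for miR-378a-3p, miR-103-3p and the tested miRNAs of the 3 lists. Points are estimates and lines are 95% intervals. The interval of miR-378a-3p runs from -0.88 to 0.82 and that of miR-103-3p from -0.42 to 2.42, and 0 lies inside both.

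The plasma libraries were also searched for miRNAs that kept the most constant ratio to each of the pair, measured as the SD of the log2 ratio over the 10 plasma libraries. For miR-378a-3p the closest were miR-27b-3p with an SD of 0.42, miR-30a-3p with 0.51 and miR-146b-5p with 0.62, where the median over all tested miRNAs was 1.31. For miR-103-3p the closest were let-7f-5p with 0.51, miR-191-5p with 0.74 and miR-21a-5p with 0.75, where the median was 1.57. The SD between miR-378a-3p and miR-103-3p themselves was 1.09, below both medians. It put miR-103-3p 48th in order of likeness to miR-378a-3p and miR-378a-3p 20th in order of likeness to miR-103-3p. The libraries share their depth and their composition within each of these ratios, and they are given as a description. Counting error widens the SD where counts are few, and miR-103-3p had fewer than 10 counts in 4 of the 10 libraries. With the 2 libraries under 10000 counts left out, 2 of the 3 closest miRNAs were again among the 3 closest for miR-378a-3p and likewise for miR-103-3p. In TMVs miR-27b-3p was lower relative to miR-378a-3p than in plasma. Its log2 ratio was -2.72 to -1.78 in TMVs and -1.39 to -0.10 in plasma, without overlap. The ranges of miR-30a-3p (-4.18 to -3.53 in TMVs, -3.93 to -2.23 in plasma) and miR-146b-5p (-1.83 to -1.63, -2.87 to -1.10) overlapped. let-7f-5p was 2.51 to 2.82 above miR-103-3p on the log2 scale in TMVs and 3.80 to 5.71 above it in plasma, without overlap. The ranges of miR-191-5p (0.37 to 0.93 in TMVs, 2.20 to 4.52 in plasma) and miR-21a-5p (3.29 to 3.85, 4.53 to 7.08) did not overlap either. All were picked for a narrow range in these plasma libraries, which favours a lack of overlap, and no share over all miRNAs was counted.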

How the data were processed

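Small RNA of vesicle pellets (final spin at 100000 g) was read as 75 bp single reads, per the labels' protocols. Of tools, bcl2fastq and cutadapt 1.10 appear in the submitters' processing notes. Not given in the sources used here are the aligner, counting tool, annotation and build, and how reads that fit both miR-103-3p and miR-107-3p were counted. The authors deposited raw counts per mature miRNA, in 1 table for TMVs (1164 miRNAs) and 1 for plasma (1354). Nothing states that each library is a separate animal or culture, so a p-value measures only spread among these libraries, which may be technical. No replicate pair agreed within sampling noise (lowest chi-square per degree of freedom 27.1).

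From these counts, shares with exact 95% intervals and within-library log2 ratios (0.5 added to each count) were computed. Intervals and limits for a count of 0 (3 counts) cover counting error only. Plasma groups were compared with edgeR 4.0.16 in R 4.3.3 (filterByExpr with a minimum count of 10, TMM, robust quasi-likelihood test, Benjamini-Hochberg adjustment over 130 miRNAs). This fit was tested on simulated data whose planted changes were far larger than the estimate for miR-103-3p. That test does not show whether a change of the size estimated for miR-103-3p would be found. DESeq2 1.42.0, limma 3.58.1, other scalings, filters and subsets of libraries were alternatives. Ratios were compared by two-sided exact permutation. Of the 8 ratio comparisons, those with miR-107-3p or miR-378a-5p rest on counts of at most 10 and lean on the 0.5 added. From each list, up to 4 tested miRNAs of highest mean CPM were named. Members and lists were chosen with earlier results of these data known.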

Additional observations from a re-analysis of the deposited data

Results flagged for a closer look

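In 17 sets of values, each of the 6 C26-bearing or the 4 control libraries, examined for a library far from the others, 3 stood out by Dixon's criterion, which chance meets in about 1 group in 20. miR-103-3p held 0.0102% of the counts in C26-bearing replicate 4, the lowest of its group, and this is 1 count. miR-107-3p held 0.00131% in C26-bearing replicate 2, the highest of its group, also 1 count against 0 in the other 5 libraries. The log2 ratio of miR-378a-3p to miR-107-3p was 5.93 in C26-bearing replicate 4, the lowest of its group. That library holds 30 counts of miR-378a-3p and 0 of miR-107-3p in a total of 9828, so its ratio is set by the 0.5 added to each count.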

How the results depend on the processing

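The plasma difference of miR-378a-3p, main value -0.03, passed no threshold under any of 25 alternatives, and its sign varied. It was 0.12 with RLE scaling, 0.12 with DESeq2, 0.0389 with the miR-5119 part as a model term, 0.13 in the libraries with little miR-5119 and 0.0908 without libraries under 10000 counts. Leaving out 1 library at a time gave -0.19 to 0.14. miR-103-3p stayed above 0, from 0.48 to 1.31, with adjusted p from 0.218 to 0.998. RLE scaling moved the median of all tested miRNAs by 0.18 and DESeq2 by 0.19. The number of calls, 0 with edgeR, was 4 with no filter, 4 with DESeq2, 17 with voom, 2 with the miR-5119 term, 1 in libraries with much miR-5119 and 0 to 1 leaving out 1 library at a time (1 without C26-bearing replicate 2 or 3).

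With the replicate block the differences were -0.23 for miR-378a-3p and 1.08 for miR-103-3p, the log2 ratio difference of the pair was -1.07, and calls stayed at 0, with 33 unadjusted p under 0.05 against 15. Same-numbered libraries did not deviate together (r from -0.40 to 0.08, best with its own number for 1 of 4), which does not settle pairing.

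The TMV difference in the ratio of miR-378a-3p to miR-103-3p was -1.84 to -1.51 leaving out 1 TMV library, -1.22 against C26-bearing plasma, -2.03 against libraries with little miR-5119 and -1.18 without libraries under 10 counts of miR-103-3p, none of which passed the exact permutation test at 0.05. Against control plasma it was -2.27 and passed before adjustment. The subsets by miR-5119 and by counts of miR-103-3p were chosen after seeing the data. These subsets have fewer samples. The plasma difference in the ratio of miR-103-3p to miR-107-3p, -0.22, ranged from -1.003 to 0.55 leaving out 1 library (above 0 without C26-bearing replicate 4, control replicate 1 or control replicate 3), was 0.32 without the controls with 2 numbers and 1.88 with much miR-5119. That of miR-378a-3p to miR-107-3p, -1.27, was 1.64 with much miR-5119, -2.33 without control replicate 4 (exact permutation p = 0.0119), -0.83 without C26-bearing replicate 4, -0.79 without control replicate 3 and -1.89 without libraries under 10000 counts (exact permutation p = 0.0179), and its TMV difference, 1.89, was -0.0354 with 0.1 added, 2.61 with 1 added (exact permutation p = 0.0245) and 2.40 against C26-bearing plasma (exact permutation p = 0.0119). That of the miR-378a arms, -0.91, was -0.0378 without control replicate 2, 0.20 without both controls with 2 numbers and 0.0782 with much miR-5119. The cause was not tested. With the 10 most abundant miRNAs of each material left out of the totals, mean shares of miR-378a-3p were 1.80% in C26-bearing and 1.99% in control plasma. Those of miR-103-3p were 1.21% in TMVs, 0.140% in C26-bearing and 0.0805% in control plasma, and that of miR-107-3p in TMVs was 0.00400%. Without miR-5119 in the total, miR-103-3p was 0.0674% in C26-bearing plasma. Depth limits miR-103-3p in the 4 plasma libraries under 10 counts and miR-107-3p in all libraries.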
